A study of Mus musculus with 10 samples.

Results

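The 10 circadian clock genes described here were followed in mouse Neuro-2a cells after knockdown of the RNA-binding protein Sfpq: the period genes Per1, Per2 and Per3, the cryptochrome genes Cry1 and Cry2, the activator gene Clock, the nuclear receptor genes Nr1d1 and Nr1d2, and the transcription factor genes Dbp and Tef. They were chosen by name, because Sfpq and its relatives are known partners of period proteins. All 10 were found among the 23553 genes of the expression files, and all 10 passed the filter on low values.

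The mammalian clock is a feedback loop of transcription. CLOCK and its partner BMAL1 (gene Arntl) bind E-box sequences and switch on the period and cryptochrome genes, whose proteins return to the nucleus and block CLOCK and BMAL1. A side loop runs through the receptors REV-ERB alpha and beta (Nr1d1 and Nr1d2), which repress Arntl, while Dbp and Tef encode activators that carry the rhythm to output genes through D-box sequences. The DBHS proteins Sfpq, Nono and Pspc1 were found in period protein complexes, where Sfpq is known to help recruit a SIN3A histone deacetylase complex to the Per1 promoter.

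Neuro-2a is an established mouse neuroblastoma line. Cells were transfected in medium with 2% serum, called a differentiated condition in the labels, with RNAiMAX and a small interfering RNA (siRNA) that targets mouse Sfpq or, in the controls, luciferase (Luc). There were 3 Sfpq and 3 Luc libraries of poly(A)-selected RNA, and 1 Sfpq and 1 Luc library of RNA depleted of ribosomal RNA (rRNA); the labels give the strain of all groups as C57BL/6+C57BL/6J+CBA. The labels name neither a step that sets the cells' clocks to the same phase nor a time of harvest, and they do not say whether replicates were separate cultures. The p-values therefore reflect only how much these libraries vary, which can be technical. In bulk RNA, fewer cells in a given clock phase and less RNA per cell cannot be told apart.

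Values are RPKM (reads scaled to transcript length and library size), so levels of different genes can be set side by side per length. Sfpq RNA itself was 3.98, 4.75 and 6.47 RPKM in Sfpq libraries, against 56.8, 60.8 and 73.0 RPKM in Luc libraries (poly(A)). Its other transcript row had 3.34, 3.90 and 5.29 RPKM in Sfpq libraries, against 42.0, 44.4 and 57.5 RPKM in Luc libraries. In rRNA-depleted RNA the first row had 4.43 RPKM in the Sfpq and 30.8 RPKM in the Luc library. Judged from the steps between low values, and then refined on the clock genes, the other 5 poly(A) libraries were 0.628 to 1.28 times as deep as Luc replicate 1. The rRNA-depleted libraries were 2.65 (Sfpq) and 2.64 (Luc) times as deep as it. On that scale the values of each clock gene were close to whole multiples of 1 read, between 76 and 6096 reads per gene and library. As the depths were refined on these same genes, that match is partly built in and does not check the depths. Among the Luc libraries, replicates 1 and 2 correlated at 0.996 on the log2 scale, while replicate 3 reached only 0.985 and 0.979 with them. Of 8 markers of sympathetic neuroblasts, the lineage of neuroblastoma, 7 reached a mean of 1 RPKM. Their summed level was 161 to 181 RPKM in Sfpq and 191 to 230 RPKM in Luc libraries, with 2 called higher and 3 lower, and their part in the results below was not tested. Markers of other cells were low: the summed levels were 0.781 to 1.23 RPKM in Sfpq and 0.839 to 1.11 RPKM in Luc libraries for 4 fibroblast genes, and at most 0.156 RPKM for 3 astrocyte genes and 0.111 RPKM for 3 macrophage genes.

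The comparison of Sfpq with Luc siRNA asks how clock transcripts respond to loss of Sfpq. In poly(A) RNA, Per1 and Cry2 rose to 2.58 and 2.17 times their Luc level, Nr1d2 fell to 0.435 times its Luc level, and the other 7 clock genes did not pass the test. A gene was called at an adjusted p under 0.05 (limma on log2(RPKM + 0.5), Benjamini-Hochberg over all 11727 genes tested). Ratios of levels are of mean RPKM, while log2 fold changes come from the limma fit on RPKM + 0.5, so they do not match exactly. Over all these genes 21.3% were called higher and 18.6% lower, 40% in all (2502 higher and 2185 lower, against 2257 higher and 2504 lower with median-ratio scaling), so that 2 higher and 1 lower of 10 clock genes is no larger a share than in the background. Changes of at least 2-fold were rarer, with 2.3% of all genes called higher and 4.73% called lower by that much, and all 3 called clock genes were of this size. Their values lay close to that limit. Without Luc replicate 3, Cry2 (log2 fold change 0.9996) and Nr1d2 (-0.94) fell short of it on the RPKM + 0.5 scale, where the added 0.5 understates changes. In rRNA-depleted RNA, Per1 and Cry2 fell short on the same scale (log2 ratios 0.92 and 0.94).

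**Figure D1:**
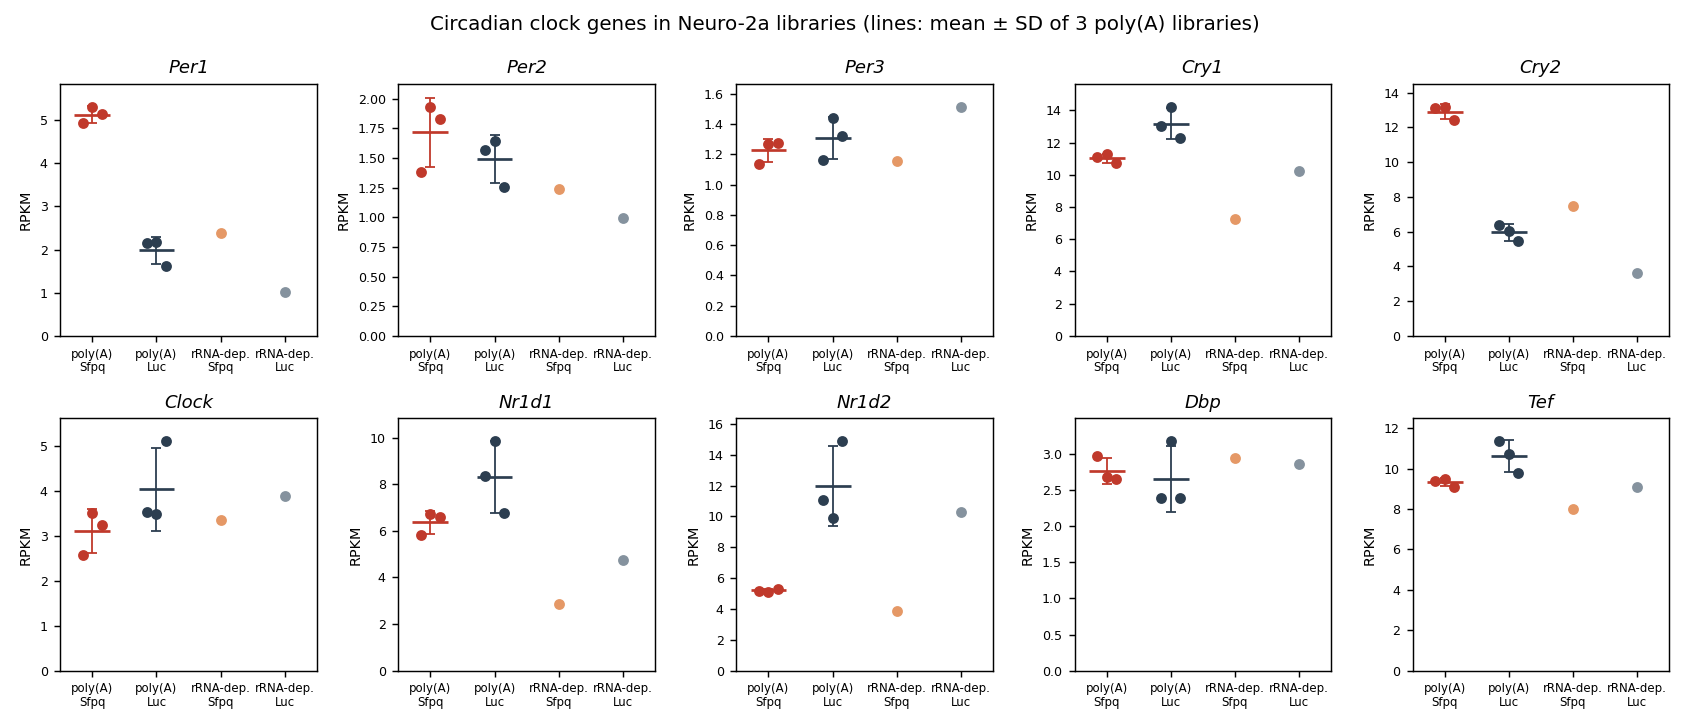
Levels of the 10 clock genes in RPKM (linear axes from 0), 1 point per library, with Sfpq libraries left of Luc libraries in each preparation; lines and bars are mean ± SD of 3 poly(A) libraries. Per1 and Cry2 lie higher and Nr1d2 lower in all Sfpq libraries, and the other genes differ less.

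Among the repressors, Per1, a period gene that light and other stimuli induce rapidly, had 4.92, 5.31 and 5.14 RPKM in the 3 Sfpq libraries, against 2.15, 2.18 and 1.62 RPKM in the 3 Luc libraries. All Sfpq libraries lay above all Luc libraries, and the spread within each group was small beside the gap. The mean was 5.13 ± 0.194 RPKM in Sfpq and 1.98 ± 0.316 RPKM in Luc libraries (SD, n = 3 each), 2.58-fold higher (log2 fold change 1.19, SE 0.13, limma adjusted p = 0.000119). These values rest on 349, 699 and 625 reads in Sfpq libraries and 243, 280 and 233 reads in Luc libraries. Per1 has another transcript row in the files, with 4.85, 5.23 and 5.08 RPKM in Sfpq libraries, against 2.13, 2.11 and 1.61 RPKM in Luc libraries. The RefSeq table gives Per1 a pair of transcription starts, and the files' values do not separate them.

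The promoters of the 3 genes that passed the test are shown so that matches to known clock motifs can be seen beside the values. Each runs from 250 bases before to 50 bases after a RefSeq start (build GRCm38.p6), 5′ to 3′ on the gene's strand, with capitals marking matches on either strand to CACGTG (E-box), CACGTT (an E-box variant), TTATGTAA (D-box) or AGGTCA (the half-site bound by REV-ERB receptors). The Per1 windows are chr11:69098699-69098998 and chr11:69099902-69100201, both on the plus strand. The Cry2 window is chr2:92434020-92434319 and the Nr1d2 window chr14:18239057-18239356, both on the minus strand.
Per1, upstream start: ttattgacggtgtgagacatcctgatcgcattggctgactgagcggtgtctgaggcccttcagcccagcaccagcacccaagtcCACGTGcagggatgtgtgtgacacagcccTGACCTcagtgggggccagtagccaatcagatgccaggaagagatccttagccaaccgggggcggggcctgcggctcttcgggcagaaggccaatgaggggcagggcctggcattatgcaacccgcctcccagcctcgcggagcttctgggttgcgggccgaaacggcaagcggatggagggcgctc
Per1, downstream start: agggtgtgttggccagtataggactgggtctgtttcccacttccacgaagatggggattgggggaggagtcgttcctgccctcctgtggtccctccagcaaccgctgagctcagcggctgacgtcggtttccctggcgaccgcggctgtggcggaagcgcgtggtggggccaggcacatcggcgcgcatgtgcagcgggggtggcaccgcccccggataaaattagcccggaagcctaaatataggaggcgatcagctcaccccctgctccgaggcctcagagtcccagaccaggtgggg
Cry2: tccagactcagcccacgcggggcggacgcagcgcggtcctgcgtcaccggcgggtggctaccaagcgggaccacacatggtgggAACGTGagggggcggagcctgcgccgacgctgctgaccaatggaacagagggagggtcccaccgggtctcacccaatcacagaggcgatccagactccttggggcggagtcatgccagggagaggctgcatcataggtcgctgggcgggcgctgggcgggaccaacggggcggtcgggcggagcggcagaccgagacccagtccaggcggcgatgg
Nr1d2: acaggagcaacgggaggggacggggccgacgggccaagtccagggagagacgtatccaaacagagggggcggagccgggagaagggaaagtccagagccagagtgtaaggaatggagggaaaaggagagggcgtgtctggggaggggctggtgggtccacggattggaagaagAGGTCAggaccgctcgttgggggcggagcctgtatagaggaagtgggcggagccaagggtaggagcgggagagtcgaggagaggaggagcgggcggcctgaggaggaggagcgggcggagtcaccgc

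The upstream Per1 window held an E-box that begins 166 bases before the start and a half-site, on the other strand, that begins 137 bases before it, while the downstream window held none of the 4 motifs. In the Cry2 window an E-box variant began 166 bases before the start, and in the Nr1d2 window a half-site began 77 bases before it. Such matches also occur in many other genes: of 32851 promoter windows of this length in the table, 7.15% held CACGTG, 4.68% CACGTT, 0.938% TTATGTAA and 16.3% AGGTCA. The 9 clock genes matched in the table were counted per gene, some with more than 1 window, whereas the shares above are per window. CACGTG was found for Per1, Cry1 and Tef, and CACGTT for Cry1, Cry2 and Nr1d1. TTATGTAA was found for Per3, and AGGTCA for Per1, Clock and Nr1d2. Genes with an E-box thus included 1 that rose and 2 that did not pass the test, and a match describes letters in the window, not binding.

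Per2, a period gene whose loss disturbs behavioural rhythm in mice, had 1.39, 1.93 and 1.83 RPKM in Sfpq libraries, against 1.57, 1.65 and 1.26 RPKM in Luc libraries. The groups overlapped, and the log2 difference of 0.15 (95% interval -0.17 to 0.48) did not pass (limma adjusted p = 0.435). Per3, the period gene that is least needed for rhythm in mice, had 1.14, 1.27 and 1.28 RPKM in Sfpq libraries, against 1.17, 1.44 and 1.32 RPKM in Luc libraries. It overlapped as well, with a log2 difference of -0.07 (95% interval -0.34 to 0.21; limma adjusted p = 0.696). The intervals of Per2 and Per3 leave out a change of the size seen for Per1, whose own interval was 0.90 to 1.48.

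Cry2, one of the cryptochromes, which are repressors of CLOCK and BMAL1, had 13.1, 13.2 and 12.5 RPKM in Sfpq libraries, against 6.41, 6.01 and 5.46 RPKM in Luc libraries. All Sfpq libraries were about equally high and lay above all Luc libraries. The mean was 12.9 ± 0.406 RPKM in Sfpq and 5.96 ± 0.479 RPKM in Luc libraries (SD, n = 3 each), 2.17-fold higher (log2 fold change 1.06, SE 0.11, limma adjusted p = 7.96e-05). Its paralog Cry1, the stronger repressor of the pair, had 11.1, 11.3 and 10.7 RPKM in Sfpq libraries, against 13.02, 14.2 and 12.3 RPKM in Luc libraries. All Cry1 values of Sfpq libraries lay below those of Luc libraries, but the log2 difference of -0.24 (95% interval -0.47 to -0.01) did not pass after adjustment (limma adjusted p = 0.085). Without Luc replicate 3, Cry1 passed as lower (log2 fold change -0.29, limma adjusted p = 0.0162). That fit called more genes over all, 3621 higher and 2645 lower, against 2502 and 2185 with every library.

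The same levels can be set side by side as ratios within pairs of related genes, 3 of which hold a gene called above. The ratio of Cry2 to Cry1 was 1.18, 1.17 and 1.16 in Sfpq libraries, against 0.492, 0.422 and 0.444 in Luc libraries, so that Cry2 was the more abundant of the pair in each Sfpq library and the less abundant in each Luc library. The ratio of Per1 to Per2 was 3.55, 2.74 and 2.81 in Sfpq libraries, against 1.37, 1.32 and 1.29 in Luc libraries. Nr1d2 stood at 0.893, 0.762 and 0.803 times Nr1d1 in Sfpq libraries, against 1.33, 1.00 and 2.20 times in Luc libraries. Each of these 3 ratios, which rest on the same values as the calls of Cry2, Per1 and Nr1d2, separated the groups fully, with an exact two-sided permutation p = 0.1 on log2 ratios, the lowest value possible with 3 libraries a group. The ratio of Tef to Dbp, at 3.38 ± 0.193 in Sfpq and 4.08 ± 0.686 in Luc libraries (SD, n = 3 each), did not separate them (two-sided exact permutation p = 0.3). In rRNA-depleted RNA the ratio of Cry2 to Cry1 was 1.03 in the Sfpq and 0.356 in the Luc library, and that of Per1 to Per2 was 1.93 in the Sfpq and 1.03 in the Luc library. Nr1d2 exceeded Nr1d1 in both rRNA-depleted libraries, by 1.36 times in the Sfpq and 2.18 times in the Luc library, unlike the poly(A) Sfpq libraries.

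**Figure D2:**
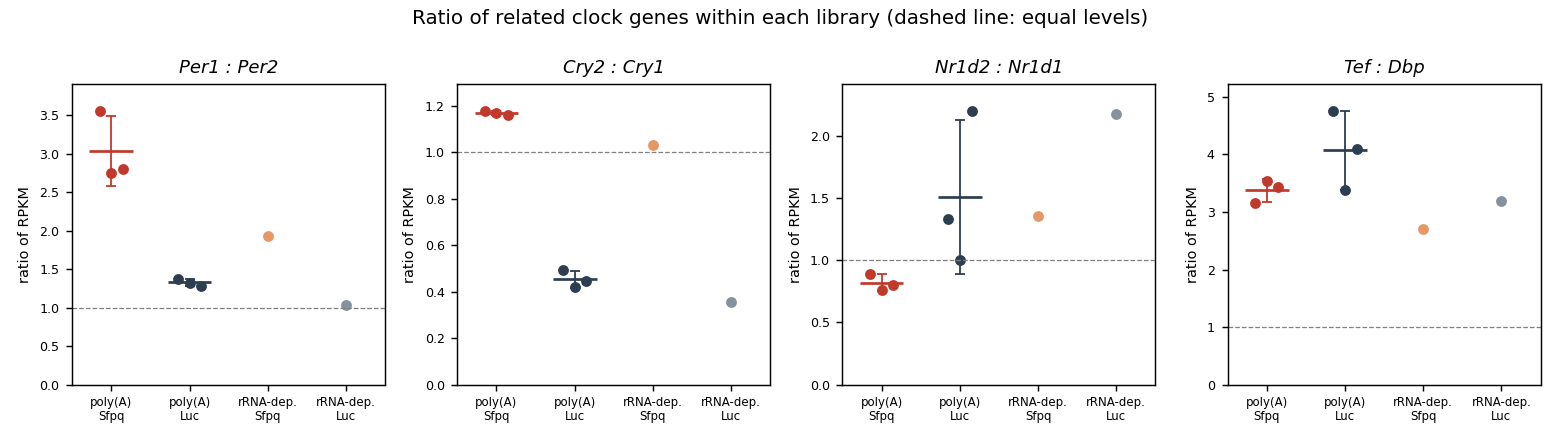
Ratio of the RPKM of 2 related clock genes within each library (linear axes from 0), 1 point per library, with Sfpq left of Luc; lines and bars are mean ± SD of 3 poly(A) libraries and the dashed line marks equal levels. The Cry2 to Cry1 ratio lies above 1 in the Sfpq libraries and below 1 in the Luc libraries of both preparations.

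In the side loop, Nr1d2 had 5.19, 5.13 and 5.30 RPKM in Sfpq libraries, against 11.1, 9.89 and 14.9 RPKM in Luc libraries. The Sfpq libraries were nearly identical and all below the Luc libraries, of which Luc replicate 3 was the highest. The mean was 5.20 ± 0.087 RPKM in Sfpq and 11.95 ± 2.60 RPKM in Luc libraries (SD, n = 3 each), a ratio of 0.435 (log2 fold change -1.11, SE 0.15, limma adjusted p = 0.000421). Without Luc replicate 3 the log2 fold change was -0.94 and still passed. Its relative Nr1d1, the better studied REV-ERB gene, had 5.81, 6.72 and 6.60 RPKM in Sfpq libraries, against 8.35, 9.85 and 6.76 RPKM in Luc libraries. The groups did not overlap, by a narrow margin, and the log2 difference of -0.35 (95% interval -0.67 to -0.02) did not pass (limma adjusted p = 0.0818). It passed without Luc replicate 3 (-0.48, limma adjusted p = 0.00359), a fit in which more genes passed over all.

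Nr1d1 shares the end of its locus with Thra, a thyroid hormone receptor gene on the other strand. As no source used here says that reads were counted by strand, reads of the 2 genes cannot be told apart where they overlap. Thra had 14.5, 16.5 and 16.6 RPKM in Sfpq libraries, against 12.7, 13.4 and 12.3 RPKM in Luc libraries, the opposite direction to Nr1d1 (log2 fold change 0.30, SE 0.10, limma adjusted p = 0.045). That call of Thra ended in 7 of 15 alternative settings, for instance with median-ratio scaling (0.25).

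Among the activators, Clock had 2.57, 3.498 and 3.25 RPKM in Sfpq libraries, against 3.53, 3.48 and 5.10 RPKM in Luc libraries. The groups overlapped, with Luc replicate 3 the highest. The log2 difference of -0.32 (95% interval -0.70 to 0.05) did not pass (limma adjusted p = 0.151) and was -0.16 without that library. Dbp, whose RNA is among the most strongly cycling in many mouse tissues, had 2.98, 2.68 and 2.65 RPKM in Sfpq libraries, against 2.39, 3.18 and 2.39 RPKM in Luc libraries. It showed no detectable difference (log2 0.06, 95% interval -0.24 to 0.36, limma adjusted p = 0.745), on 76 to 127 reads in Sfpq and 97 to 147 reads in Luc libraries. Tef, a relative of Dbp that cycles less, had 9.41, 9.47 and 9.10 RPKM in Sfpq libraries, against 11.4, 10.7 and 9.79 RPKM in Luc libraries. Its groups did not overlap, but the log2 difference of -0.18 (95% interval -0.41 to 0.05) did not pass (limma adjusted p = 0.197). It passed as lower without Luc replicate 3 (-0.23, limma adjusted p = 0.0427), the fit in which more genes passed over all.

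Groups did not overlap for 6 of the 10 clock genes, 2 higher and 4 lower, against 52.9% of all genes tested. The median log2 difference of the 10 was -0.12, and that of all genes tested 0.05. In Luc libraries the most abundant clock genes were Cry1 (13.2 RPKM), Nr1d2 (11.95), Tef (10.6) and Nr1d1 (8.32), given as group means, and the ranges of neighbours in this order overlapped. Cry2 (5.96), Clock (4.04) and Dbp (2.65) followed with ranges that did not overlap their neighbours above or below. Per1 (1.98), Per2 (1.49) and Per3 (1.31) were lowest, and each overlapped the next. In Sfpq libraries the order was Cry2 (12.9), Cry1 (11.04), Tef (9.33), Nr1d1 (6.38), Nr1d2 (5.20), Per1 (5.13), Clock (3.10), Dbp (2.77), Per2 (1.72) and Per3 (1.23). Of these neighbours, Nr1d2 with Per1 and Clock with Dbp had overlapping ranges.

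The rRNA-depleted preparation, which also keeps RNA without a poly(A) tail, has 1 library per group, so its values have no replicate check. Per1 was 2.39 RPKM in the Sfpq and 1.02 RPKM in the Luc library, on 714 and 304 reads. Cry2 was 7.46 RPKM in the Sfpq and 3.64 RPKM in the Luc library, and Nr1d2 was 3.87 RPKM in the Sfpq and 10.3 RPKM in the Luc library. The log2 ratios of these 3 genes on the RPKM + 0.5 scale were 0.92, 0.94 and -1.30, in the directions seen in poly(A) RNA. Without the added 0.5 they were 1.22 (exact 95% interval 1.03 to 1.42), 1.03 (0.92 to 1.15) and -1.41 (-1.48 to -1.34); these intervals cover counting error between 2 libraries only.

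The other 7 genes moved less in rRNA-depleted RNA. Nr1d1 was 2.86 RPKM in the Sfpq and 4.73 RPKM in the Luc library (log2 ratio -0.64), and Cry1 was 7.23 RPKM in the Sfpq and 10.2 RPKM in the Luc library (-0.47). Per3, with 1.15 RPKM in the Sfpq and 1.52 RPKM in the Luc library (-0.29), Clock, with 3.35 and 3.89 RPKM (-0.19), and Tef, with 7.98 and 9.10 RPKM (-0.18), were lower by smaller amounts. Per2 was 1.24 RPKM in the Sfpq and 0.991 RPKM in the Luc library (0.22), and Dbp 2.95 RPKM in the Sfpq and 2.86 RPKM in the Luc library (0.04). All 10 genes had the same sign in both preparations, and the share of all genes that did so was not computed. The poly(A) intervals of Per2, Per3, Clock, Dbp and Tef include 0, so their signs are uncertain there. In rRNA-depleted RNA the counting interval of Dbp without the added 0.5 (-0.18 to 0.28) includes 0 as well. Past 2-fold on the RPKM + 0.5 scale were 0 clock genes higher and 1 lower (Nr1d2), against 1.65% and 5.18% of 11386 genes. With 0.1 added in place of 0.5, Per1 (1.15) and Cry2 (1.01) were past 2-fold higher as well.

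Whether the response differed between preparations was tested with an interaction term over all 8 libraries, in which the lone rRNA-depleted libraries are assumed to vary like the poly(A) libraries. None of the 10 clock genes passed (limma, 0 of 10 adjusted p under 0.05, and 0 of 10 at an unadjusted p under 0.05), against 0.0256% of all 11734 genes, or 3. The differences, rRNA-depleted minus poly(A), ran between -0.29 (Nr1d1, SE 0.29) and 0.13 (Clock, SE 0.34) on the log2 scale. With SE between 0.19 and 0.34, differences of this size were not detectable in this design.

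**Figure D3:**
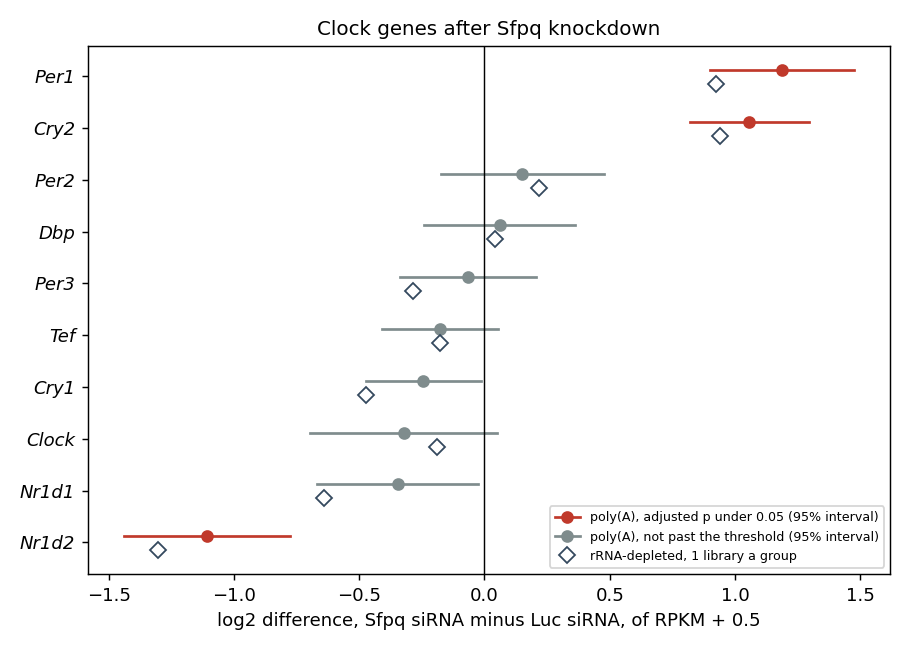
Log2 difference (Sfpq minus Luc, of RPKM + 0.5) of each clock gene: filled circles with 95% intervals for poly(A) RNA (limma, 3 against 3 libraries, red where called), and open diamonds for rRNA-depleted RNA (1 library a group). Per1 and Cry2 lie near 1 and Nr1d2 near -1 in both preparations, and the intervals of 5 of the other 7 genes include 0.

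Other genes of the clock were taken from lists of its activators, repressors, modifying enzymes and protein partners. Of the activators that pair with or replace CLOCK, Arntl had 7.25 ± 0.954 RPKM in Sfpq and 7.78 ± 1.61 RPKM in Luc libraries (SD, n = 3 each; limma adjusted p = 0.697), and Npas2 was at or near 0.

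Of 5 further repressors and D-box factors, 0 passed in either direction (limma), against 40% of all genes tested. At an unadjusted limma p under 0.05, 0 passed as well, and their median log2 difference was -0.08. They are Ciart, Bhlhe40 and Bhlhe41, which repress CLOCK and BMAL1, Nfil3, the repressor at D-boxes, and Hlf, an activator there. Nfil3, the most abundant, had 27.4 ± 0.440 RPKM in Sfpq and 31.8 ± 2.90 RPKM in Luc libraries (SD, n = 3 each; limma adjusted p = 0.133).

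Of 16 genes for enzymes that modify or degrade clock proteins, 14 were tested, 4 rose, 1 fell and 9 did not pass (limma), against 21.3% higher and 18.6% lower among all genes tested, so the 5 called are no larger a share than the 40% of the background. Csnk1d and Csnk1e encode the casein kinases that mark period proteins for decay. Csnk1d had 67.9, 74.6 and 72.9 RPKM in Sfpq libraries, against 49.5, 50.9 and 46.4 RPKM in Luc libraries (log2 fold change 0.55, limma adjusted p = 0.00172). Csnk1e rose as well in poly(A) RNA (0.46, limma adjusted p = 0.0126), but had 41.3 RPKM in the Sfpq and 40.4 RPKM in the Luc library of rRNA-depleted RNA, and its call ended without Sfpq replicate 2 (0.46, limma adjusted p = 0.0501) and with no filter on low values (limma adjusted p = 0.0621). Csnk2a1, a catalytic subunit of casein kinase 2, rose by 0.68 and Usp7, a deubiquitinase that acts on cryptochromes, by 0.35 (limma adjusted p = 0.00162 and 0.028). Usp7 lost its call with no filter on low values and without Luc replicate 1 or 2 or Sfpq replicate 2 or 3. Btrc, the ubiquitin ligase subunit that recognises phosphorylated period proteins, fell to 1.41, 1.59 and 1.79 RPKM in Sfpq libraries, against 3.53, 2.92 and 3.30 RPKM in Luc libraries (log2 fold change -0.84, SE 0.13, limma adjusted p = 0.000829).

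Of 9 protein partners of the period and cryptochrome complex, 1 rose, 0 fell and 8 did not pass (limma), against 21.3% higher and 18.6% lower among all genes tested. Timeless, a replication fork protein that binds cryptochromes in mammals, had 9.17, 10.96 and 10.3 RPKM in Sfpq libraries, against 5.27, 5.61 and 4.85 RPKM in Luc libraries, with no overlap (log2 fold change 0.89, SE 0.11, limma adjusted p = 0.000341). The corepressor gene Sin3a had 11.3 ± 1.16 RPKM in Sfpq and 10.7 ± 2.18 RPKM in Luc libraries (SD, n = 3 each; limma adjusted p = 0.657), and the deacetylase gene Hdac1 had 98.5 ± 7.50 RPKM in Sfpq and 86.6 ± 4.09 RPKM in Luc libraries (SD, n = 3 each; limma adjusted p = 0.171). The DBHS genes Pspc1 (log2 fold change 1.38) and Nono (0.43), whose proteins share the period complex with Sfpq, both rose (limma adjusted p = 2.34e-05 and 0.0294); Nono lost its call in 5 of 15 alternative settings.

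**Figure D4:**
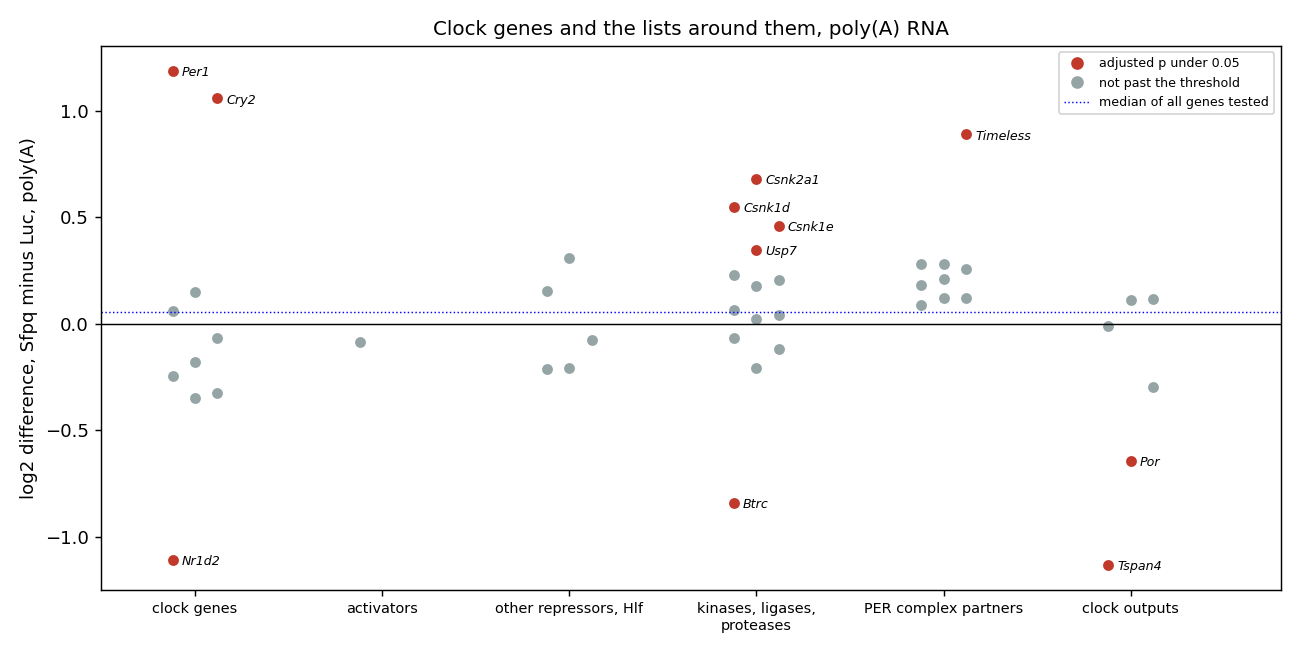
Log2 difference (Sfpq minus Luc, poly(A) RNA) of each tested gene of the clock list and 5 groups of genes around it, 1 point per gene, with genes called by limma in red and named; the dotted line is the median of all genes tested. Timeless lies nearest to Per1 and Cry2 among the other genes plotted. On the lower side Tspan4 lies near Nr1d2, and Btrc and Por fell by less.

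Per1 had the largest log2 fold change of the called clock genes in poly(A) RNA, though that of Nr1d2 was about as large with median-ratio scaling (-1.15, against 1.15 for Per1) and larger in rRNA-depleted RNA. The genes whose pattern correlated most closely with that of Per1 over the 8 libraries were Cenpm (Pearson r of log2(RPKM + 0.5) 0.998), Lmbr1l (0.997) and Pwwp2b (0.996), among 10969 genes averaging 1 RPKM or more. Their poly(A) log2 fold changes were 0.70, 1.42 and 0.50, against 1.19 for Per1, so a like pattern is not a like size. This likeness describes 8 libraries that share the same siRNA contrast and the same pair of preparations.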

How the data were processed

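Per the file headers, the authors deposited RPKM values by RefSeq transcript, in a file for each library. The submitters' processing notes name TopHat2 2.0.10 and mouse build mm9. The program that computed RPKM, its treatment of strand and its filters: not given in the sources used here. Of 30978 rows, 30507 (98.5%) were named through a RefSeq gene table of GRCm38.p6, used for names and promoters; a gene was represented by its row with the highest mean over the 8 libraries. The title of the second Sfpq poly(A) library was used where its description gives another replicate number. Pol II chromatin immunoprecipitation is not analysed here.

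Absolute depth is not stated. Relative depth came from ratios of low values (0.02 to 0.5 RPKM) between libraries, of which 68.5% to 79.6% lay within 0.002, on the natural log scale, of a ratio of whole numbers up to 20. The depths were then refined on the clock genes' own values. The low values left the scale of the rRNA-depleted libraries open by a whole factor, which was also chosen on the clock genes. Reads per clock gene are the smallest whole numbers that match all 8 values, with a largest distance from a whole number of 0.0055. The match is thus not independent of the depths, and the read counts and counting intervals depend on them.

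Genes averaging 0.5 RPKM or more in the libraries compared were fitted with limma 3.58.1 (R 4.3.3, trended prior) on log2(RPKM + 0.5), which understates changes of low genes, with p-values adjusted by Benjamini-Hochberg over all genes tested and a threshold of 0.05. With 1 library per group, log2 ratios are given with no test. Ratios of related genes were compared with exact permutation tests (scipy 1.17.1, Python 3.11.15). The fit was first tested on simulated data with known changes. The clock genes and lists were chosen with earlier results of these data known. The rule for names took all 10 clock genes, the DBHS genes, Thra, and in each list up to 3 called genes per direction, or the most abundant where none was called; other genes of the lists (Npas2, Ciart, Bhlhe40, Bhlhe41, Hlf, Usp7, Sin3a, Hdac1, Nampt and Wee1) were named after their values were seen. Alternatives to these choices are described in the closing section. Some genes of the lists are not reported here.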

Additional observations from a re-analysis of the deposited data

How the results depend on the processing

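Per1, Cry2 and Nr1d2 kept their direction and their call under all 15 alternatives: quantile normalization, a replicate block, pseudocounts of 0.1 and 1, limma with no trended prior, averaging the rows of a gene, median-ratio scaling, a minimum of 2 RPKM or none, and leave-one-out of each poly(A) library. Their log2 fold changes ran between 1.04 and 1.34 for Per1, 1.00 and 1.11 for Cry2, and -1.23 and -0.94 for Nr1d2, and the highest limma adjusted p was 0.0157 (Nr1d2, no filter). The count of clock genes lower ran between 1 and 4 when a library was left out, with 4 without Luc replicate 3, and the count of clock genes higher was 2 throughout. The fit without Luc replicate 3 also called the most genes over all, 3621 higher and 2645 lower, against 2502 and 2185 with all libraries. Whether its extra calls are particular to clock genes was not tested. Over all genes, 1546 to 3621 were higher and 1673 to 2645 lower when a library was left out (leaving out Sfpq replicate 2 gave 1546 higher, and Sfpq replicate 3 gave 1631, against 2502 with all). Per2 and Per3 were not tested when 2 RPKM was required. Median-ratio scaling moved the median log2 difference of all genes to 0.01, against 0.05, and the share of calls that were higher to 47.4%, against 53.4%.

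Same-numbered poly(A) libraries deviated together with correlations of 0.327, -0.0350 and 0.157, and differently numbered ones with -0.277 to 0.166. With 3 libraries a group, these values cannot decide whether the replicate numbers pair the libraries. With a replicate block, 2681 genes were higher and 2309 lower, against 2502 and 2185 without it. The clock genes called numbered 2 higher and 1 lower, as without the block. Not every library correlated best with its own number.

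The interaction of siRNA and preparation called 1 gene higher and 2 lower over all genes. These counts were 0 and 0 with a pseudocount of 0.1, 4 lower with a pseudocount of 1 or with quantile normalization, 0 higher with median-ratio scaling, and 0 to 1 higher and 0 to 5 lower when a library was left out; no clock gene was called in any of these 12 settings. Its alternatives changed neither the filter nor the block. In rRNA-depleted RNA, the log2 ratios of Per1, Cry2 and Nr1d2 were 1.15, 1.01 and -1.39 with a pseudocount of 0.1, so that 2 clock genes instead of 0 were past 2-fold higher, and Nr1d2 was -1.21 with a pseudocount of 1, moves that follow from the added constant. Depth limits Dbp most, with 76 reads in the shallowest library.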

Other observations

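Genes that the clock drives in many mouse tissues were compared in the same fit. Of 6 such genes, 0 rose, 2 fell and 4 did not pass (limma), with a median log2 difference of -0.15, against 0.05 for all genes tested, of which 21.3% rose and 18.6% fell; the 2 called are a smaller share than the 40% called in the background. Tspan4, a tetraspanin membrane protein gene, fell to 40.3, 42.8 and 42.9 RPKM in Sfpq libraries, against 91.4, 87.9 and 98.7 RPKM in Luc libraries (log2 fold change -1.13, SE 0.09, limma adjusted p = 2.79e-05). Por, which encodes the electron donor of cytochrome P450 enzymes, fell to 33.8, 33.0 and 32.0 RPKM in Sfpq libraries, against 52.7, 56.0 and 46.8 RPKM in Luc libraries (log2 fold change -0.64, SE 0.10, limma adjusted p = 0.0011). Both were lower in rRNA-depleted RNA too, with Tspan4 at 18.8 RPKM in the Sfpq and 45.7 RPKM in the Luc library and Por at 22.5 RPKM in the Sfpq and 37.5 RPKM in the Luc library. Nampt, the rate-limiting enzyme of NAD salvage and a direct E-box target, had 27.3 ± 1.31 RPKM in Sfpq and 27.8 ± 4.83 RPKM in Luc libraries (SD, n = 3 each; limma adjusted p = 0.961), and the cell cycle kinase gene Wee1, also an E-box target, had 9.09 ± 0.341 RPKM in Sfpq and 8.45 ± 1.90 RPKM in Luc libraries (SD, n = 3 each; limma adjusted p = 0.555).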
